A study of Mus musculus with 45 samples.

Results

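Lbx1, Prdm13, Gbx1, Lmx1b and Dmrt3 encode transcription factors or regulators of the dorsal spinal interneurons named dI4, dI5 and dI6, and Prdm12, a relative of Prdm13, is taken with them. These 6 genes were taken by name from a deposited table of 11220 genes, which held all 6. The table gives bulk RNA levels in 45 libraries, in 15 groups of 3, from mouse embryonic stem cells (mESCs) grown as adherent cultures toward spinal sensory interneurons. Cultures of the M groups had 100 nM retinoic acid (RA) and 10 ng/ml BMP4 together for up to 48 h and were taken on days 4, 5, 7 and 9 (M4, M5, M7 and M9). Cultures of the B groups had RA for 24 h and then RA with BMP4 for another 24 h, and were taken 6 h into that BMP4 interval (B6hr) and on days 5, 7 and 9 (B5, B7 and B9). The R groups had 100 nM RA alone for up to 48 h (R4, R6hr, R5, R7 and R9). D3 cells were neuromesodermal progenitors, taken after basic FGF and CHIR, an activator of WNT signalling, and D0 was the undifferentiated mESC culture. Every M, B and R culture passed through the D3 stage. Since M and B differ both in when BMP4 began and in how long it lasted, those factors cannot be told apart. The labels date the end of the RA interval to day 4 in one place and to day 5 in another.

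In the embryonic spinal cord, RA and WNT signals set caudal neural identity, and BMP ligands from the roof plate pattern the dorsal progenitor domains. The dI1 to dI3 neurons arise nearest to the roof plate and depend on its signals, while dI4 to dI6 neurons arise farther ventrally and can form without them. Lbx1 is the homeodomain factor shared by the dI4, dI5 and dI6 classes. Prdm13, a PR-domain protein that acts downstream of Ptf1a, and Gbx1, a homeodomain factor, belong to the inhibitory dI4 lineage and its later-born relatives. Lmx1b is a LIM homeodomain factor of excitatory dI5 neurons, and Dmrt3 is a doublesex-related factor of dI6 commissural neurons. Prdm12 is another PR-domain protein, known in the spinal cord from the ventral p1 progenitors of V1 interneurons rather than from a dI4 to dI6 domain, and required in mice and humans for pain-sensing neurons of the sensory ganglia. Outside the spinal cord Lbx1 also acts in migrating muscle precursors and Lmx1b in dorsal limb mesenchyme.

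On mm10, the whole genes in GENCODE M21 lie at chr19:45232684-45235812 (Lbx1), chr4:21677480-21685963 (Prdm13), chr5:24502757-24527202 (Gbx1) and chr2:33560965-33640511 (Lmx1b), all on the minus strand. Dmrt3 lies at chr19:25610301-25623921 and Prdm12 at chr2:31640037-31655795, both on the plus strand. All 6 are annotated as protein-coding. An antisense gene, Gm13425, overlaps Prdm12, and Gm38011 on the plus strand overlaps Lmx1b. Neither is in the table, and the strand used in counting is not given in the sources used here, so reads of these overlapping genes cannot be told apart. Of the 6 genes, 4 matched the RefSeq promoter table used here, among them both PR-domain genes. Prdm12 and Prdm13 had the highest ratios of highest to lowest group mean among the 6 genes, so, chosen after these values were seen, the 250 bases before their start sites are shown for GRCm38.p6. They are written 5′ to 3′ on the gene's strand, with CG dinucleotides in capitals, at chr2:31639787-31640036 on the plus strand for Prdm12 and chr4:21685964-21686213 on the minus strand for Prdm13.
Prdm12 promoter: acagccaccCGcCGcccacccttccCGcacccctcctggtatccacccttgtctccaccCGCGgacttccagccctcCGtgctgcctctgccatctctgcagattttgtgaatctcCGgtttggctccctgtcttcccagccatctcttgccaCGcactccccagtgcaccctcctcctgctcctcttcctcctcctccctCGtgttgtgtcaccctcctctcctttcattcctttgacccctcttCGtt
Prdm13 promoter: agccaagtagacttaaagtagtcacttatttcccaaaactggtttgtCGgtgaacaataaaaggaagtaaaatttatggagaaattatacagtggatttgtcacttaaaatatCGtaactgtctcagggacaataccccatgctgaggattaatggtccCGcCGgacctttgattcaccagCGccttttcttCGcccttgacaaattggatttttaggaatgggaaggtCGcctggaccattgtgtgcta
The Prdm12 stretch held 10 CG dinucleotides and was 61.2% G or C, and the Prdm13 stretch held 7 and was 41.6% G or C, beside a median of 6 CG dinucleotides over 32851 promoters of the same length. On both strands, neither stretch held the E-box letters CANNTG (found in 66.2% of all promoters), their form CAGCTG (13%), the nuclear receptor half-site AGGTCA (14%) or the palindrome GGCGCC (9.59%). The Lmx1b and Dmrt3 stretches, not shown, each held 1 CANNTG and none of the other motifs, with 19 and 13 CG dinucleotides. CAGCTG is a case of CANNTG, and the searches say nothing about binding.

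Values below are the deposited normalized levels per library, in the order of replicates 1, 2 and 3. They are not scaled to gene length, so levels are compared within a gene and not between genes. Levels summed over all listed genes came to 12245725 at the lowest and 15868724 at the highest per library. The same read number is stated for every library, but the depth reached in each is unknown. No listed gene stood at 0 in any library. The series design states 3 independent differentiations but no label ties a replicate number to one, so p-values measure the spread between these libraries, which may be technical in part. Libraries of D0 differed: Pou5f1, the pluripotency factor, stood at 3064, 2678 and 22336, and Tubb3, a neuronal tubulin, at 6070.5, 8907 and 2171. D3 replicate 1 also stood apart, with Tubb3 at 273, 5477 and 4967 over the 3 D3 libraries. Of the 6 h groups, replicate 1 had the lowest summed level of 5 limb and lateral mesoderm markers, at 183 in B6hr (the others 616 and 971) and 324 in R6hr (the others 1021 and 1512).

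With RA alone, 4 of the 6 genes rose between D3 and R4, and 3 of those 4 rose again between R4 and R5. Prdm13 had 82.0, 101 and 11.8 in D0, 42.8, 104 and 68.0 in D3, 245, 202 and 666 in R4, 796, 768 and 324 in R6hr, 1059.7, 2586 and 2569.9 in R5, 1143, 1312 and 409 in R7 and 706, 661 and 337 in R9. Prdm12 had 39.5, 45.1 and 4.10 in D0, 10.4, 8.75 and 8.92 in D3, 89.3, 39.9 and 106 in R4, 129, 113 and 13.4 in R6hr, 259, 465 and 728 in R5, 62.3, 80.4 and 36.8 in R7 and 26.7, 23.0 and 18.2 in R9. Both PR-domain genes had their highest group mean in R5, and every R5 library of each exceeded every R4 library, where 29.9% of all genes did not overlap. In R7 and R9 the levels of Prdm12 lay below every R5 level (28.2% of all genes did not overlap in R7 over R5), while those of Prdm13 in R7 overlapped R5.

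The level of Gbx1 was 39.2, 23.2 and 21 in D0, 35.8, 15.3 and 14.6 in D3, 67.2, 89.3 and 44.3 in R4, 241, 176 and 105 in R6hr, 188, 107 and 178 in R5, 162, 125 and 176 in R7 and 83.9, 89.8 and 120.2 in R9. That of Lbx1 was 49.1, 83.5 and 13.8 in D0, 16.6, 13.3 and 46.2 in D3, 62.1, 64.9 and 52.3 in R4, 85.3, 138 and 455 in R6hr, 115, 193 and 105 in R5, 275, 325 and 138 in R7 and 277, 289 and 188 in R9. Neither gene had a library of R4 within its D3 range, and the latest groups, R7 and R9, held the highest Lbx1 means. In R6hr replicate 3 Lbx1 was far above the other libraries of its group, while Gbx1 was lowest in that library.

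Lmx1b and Dmrt3 varied less along the RA course. Lmx1b had 59.0, 33.1 and 42.5 in D0, 55.0, 26.2 and 27.6 in D3, 177, 183 and 182 in R4, 107, 127 and 101 in R6hr, 167, 191 and 171 in R5, 123, 111 and 77.1 in R7 and 221, 214 and 168 in R9. Dmrt3 had 30.5, 16.5 and 24.1 in D0, 43.6, 28.2 and 50.7 in D3, 80.6, 86.0 and 89.7 in R4, 188, 149 and 15.9 in R6hr, 136, 122 and 110.1 in R5, 116, 111 and 105 in R7 and 81.1, 88.7 and 117 in R9. Lmx1b was even across the 3 R4 libraries, and all its R6hr and R7 libraries lay below every R4 library. In R6hr replicate 3 Dmrt3 and Prdm12 were each far below the other libraries of that group.

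A change was called where limma-trend gave a Benjamini-Hochberg adjusted p under 0.05 over all 11220 genes, and log2 changes are of level + 1, which understates those of low genes. In R4 over D3, 4 of the 6 genes were called higher, where 11.7% of all genes were: Lmx1b (log2 change 2.37, SE 0.42, adjusted p = 6.5e-05), Gbx1 (log2 change 1.63, SE 0.40, adjusted p = 0.00291), Prdm12 (log2 change 2.83, SE 0.75, adjusted p = 0.00511) and Prdm13 (log2 change 2.24, SE 0.81, adjusted p = 0.0415). Lbx1 and Dmrt3 did not pass (log2 changes 1.41 and 1.09, adjusted p = 0.0933 and 0.122), although no R4 library overlapped D3 in any of the 6 genes, as in 31.4% of all genes. Lbx1 passed with quantile normalization (adjusted p = 0.0374) and without D3 replicate 3 (0.0422). In bulk RNA, more cells of a type and more RNA per cell cannot be told apart. Among 12 progenitor factors of the dP4 to dP6 domains, 5 rose, among them the neural progenitor factor Pax6 (log2 change 6.56), and 2 fell. Of 13 pan-neuronal genes 1 rose and 6 fell (median log2 change -1.60). Of 9 inhibitory neuron genes 3 rose and 2 fell, and of 6 genes of excitatory dI5 neurons 0 rose and 2 fell. The Prdm13 call in R4 over D3 was lost without any 1 of the 3 D3 libraries or R4 replicate 1 or 3 (adjusted p 0.0529 to 0.174) and with the compared libraries alone (0.0548), as was that of Gbx1 in the last setting (0.083).

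In R5 over R4, 3 of 6 were called higher, beside 7.09% of all genes: Prdm12 (log2 change 2.60, SE 0.75, adjusted p = 0.0195), Prdm13 (log2 change 2.58, SE 0.81, adjusted p = 0.0334) and Gbx1 (log2 change 1.24, SE 0.40, adjusted p = 0.0392). Pax2, an inhibitory neuron factor, rose too (log2 change 1.64, adjusted p = 0.044). It was the only 1 called of 9 inhibitory neuron genes, whose median log2 change was 0.008. Each of the 3 calls was lost without R5 replicate 3, and also without R5 replicate 2 for the PR-domain genes, without R4 replicate 1 (Gbx1, Prdm13), replicate 2 (both PR-domain genes) or replicate 3 (Gbx1), or without R5 replicate 1 (Gbx1), at adjusted p 0.0565 to 0.159. In R7 over R5 Prdm12 alone among the 6 was called, and it fell (log2 change -2.94, SE 0.75, adjusted p = 0.00928), where 5.97% of all genes fell. Without R5 replicate 3 that call was lost (adjusted p = 0.0628). In R9 over R7 none of the 6 was called by limma-trend, although 20.3% of all genes were. Lmx1b was the 1 gene of the 6 with an unadjusted p under 0.05, and the largest changes were those of Prdm12 (-1.31, adjusted p = 0.22) and Lmx1b (0.96, adjusted p = 0.101).

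**Figure D1:**
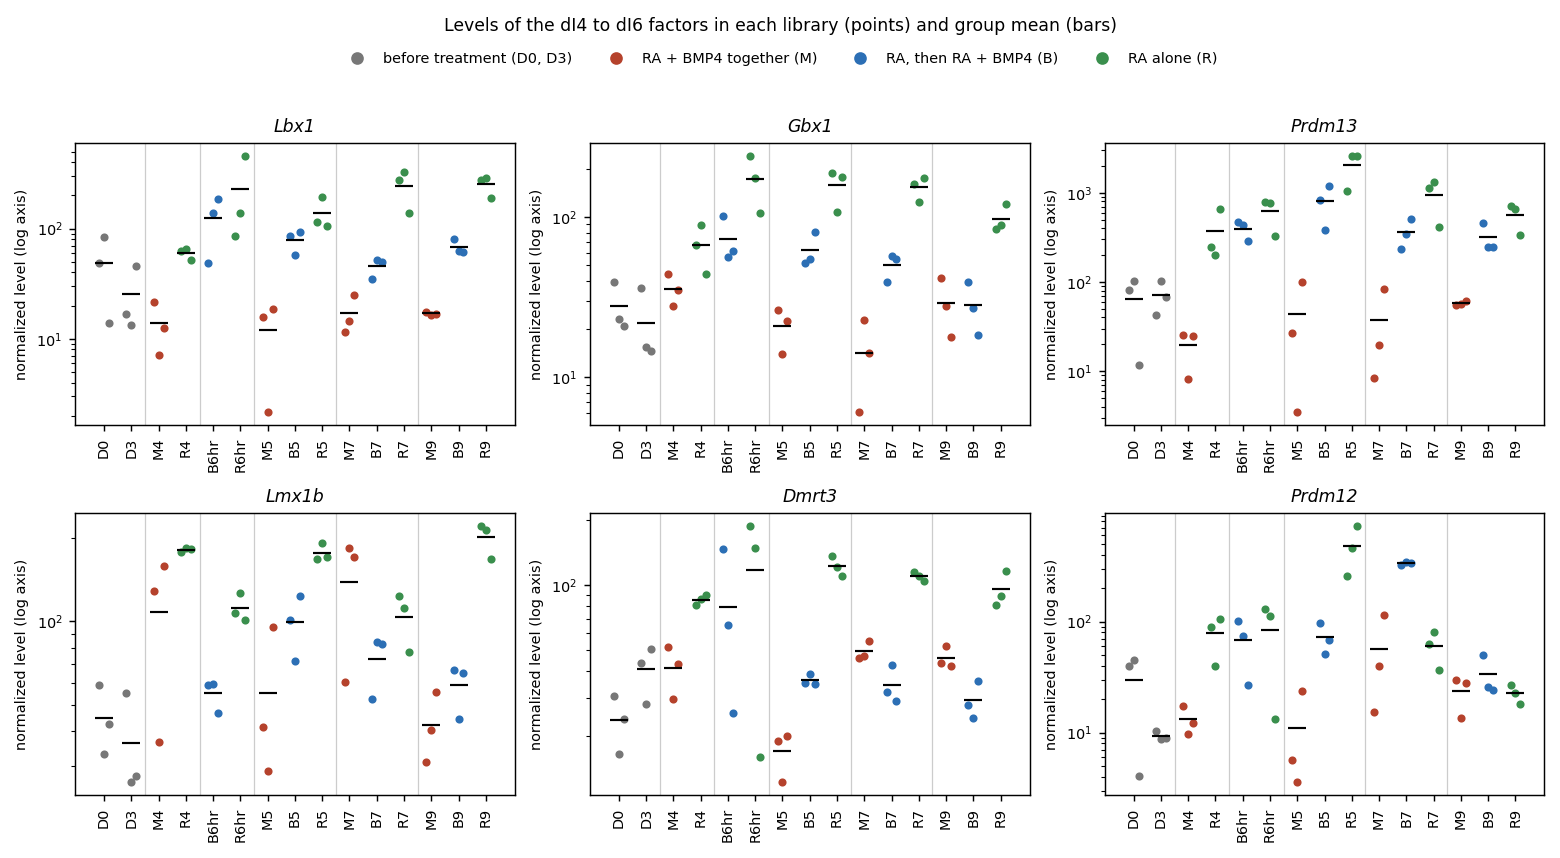
Normalized level (log axis) of each of the 6 genes in all 45 libraries, grouped by day with M left of B left of R, after D0 and D3. Points are libraries and bars are group means over 3 libraries. Prdm12 and Prdm13 peak in R5 (means 484 and 2072), and Prdm12 has a second high group in B7 (mean 336).

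When BMP4 was given with RA from the start, the levels of all 6 genes in M4 lay below those in R4. The M4, M5, M7 and M9 comparisons with R and those of B with R share the R libraries of their day. Prdm13 stood at 25.7, 8.12 and 24.9 in M4 libraries, against 245, 202 and 666 in R4. Lbx1 stood at 21.7, 7.07 and 12.5 in M4, against 62.1, 64.9 and 52.3 in R4, and Prdm12 at 17.6, 9.78 and 12.3 in M4, against 89.3, 39.9 and 106 in R4. These 3 genes fell: Prdm13 (log2 change -4.12, SE 0.81, adjusted p = 0.000596), Lbx1 (log2 change -2.16, SE 0.61, adjusted p = 0.0148) and Prdm12 (log2 change -2.40, SE 0.75, adjusted p = 0.0265). That is 3 of 6 lower and 0 higher, beside 7.37% of all genes lower, and the median log2 change was -1.61 over the 6 genes and -0.018 over all genes. Gbx1 had 43.9, 27.8 and 34.9 in M4, against 67.2, 89.3 and 44.3 in R4. Lmx1b had 129, 36.7 and 158 in M4, against 177, 183 and 182 in R4, and Dmrt3 had 52.0, 29.6 and 43.0 in M4, against 80.6, 86.0 and 89.7 in R4. These last 3 genes did not pass (adjusted p = 0.166, 0.121 and 0.181), though no M4 library overlapped R4 for any of the 6, as for 26.1% of all genes. The Lbx1 call was lost without M4 replicate 2 (adjusted p = 0.11), and that of Prdm12 without R4 replicate 1 or 3 or M4 replicate 2 or 3 (0.0597 to 0.111). Lmx1b passed without M4 replicate 3 (0.0372). Markers of other cells moved in M4 over R4 too. All 5 limb and lateral mesoderm markers rose, with sums of 7950.4 to 14690.4 in M4 and 520.3 to 793 in R4. Of the 12 progenitor factors 7 fell, and of 13 pan-neuronal genes 3 fell, with sums of 2785 to 5035 in M4 and 5341 to 12533 in R4. The part of these cells was not tested.

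At day 5 most of the 6 genes were lowest in M5, higher in B5 and highest in R5. Prdm13 stood at 26.6, 3.44 and 100.0 in M5, 836, 381 and 1189 in B5 and 1059.7, 2586 and 2569.9 in R5. Prdm12 stood at 5.62, 3.57 and 23.8 in M5, 97.3, 51.3 and 68.4 in B5 and 259, 465 and 728 in R5. For Prdm12 the groups formed separate ranges, with M5 lowest and R5 highest, whereas the Prdm13 ranges of B5 and R5 overlapped. Lbx1 stood at 15.7, 2.15 and 18.5 in M5, 85.1, 57.4 and 92.1 in B5 and 115, 193 and 105 in R5. Gbx1 stood at 26.2, 13.9 and 22.4 in M5, 51.7, 54.5 and 81.2 in B5 and 188, 107 and 178 in R5. Dmrt3 stood at 18.9, 12.2 and 19.9 in M5, 35.2, 38.6 and 34.8 in B5 and 136, 122 and 110.1 in R5. These 3 homeodomain and doublesex-related genes also kept M5, B5 and R5 in separate ranges in that order, where 55.4% of all genes did not overlap in M5 over R5, 31.6% in M5 over B5 and 21.6% in B5 over R5. Lmx1b had 41.5, 28.9 and 95.2 in M5, 101, 72.1 and 124 in B5 and 167, 191 and 171 in R5, so its M5 and B5 libraries overlapped and both lay below R5.

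In M5 over R5 all 6 genes fell, where 23.3% of all genes fell. The log2 changes were -6.37 for Prdm13 (SE 0.81, adjusted p = 1.87e-07), -5.62 for Prdm12 (SE 0.75, adjusted p = 3.72e-07) and -3.73 for Lbx1 (SE 0.61, adjusted p = 1.03e-05). They were -2.86 for Gbx1 (SE 0.40, adjusted p = 9.93e-07), -2.80 for Dmrt3 (SE 0.51, adjusted p = 4.36e-05) and -1.83 for Lmx1b (SE 0.42, adjusted p = 0.000617). The median over the 6 genes was -3.30, beside -0.021 over all genes, and the 6 calls held without any 1 library of M5 or R5. Of the 12 dP4 to dP6 progenitor factors 9 fell and 0 rose, with Dbx1 (log2 change -8.42) and Pax6 (-5.08) among the fallen. Of 9 inhibitory neuron genes 4 fell, Pax2 (-3.60) among them, and 1, Wt1, rose (1.41). Wt1 is a zinc finger factor of a dI6 subset and also of mesothelium. Of 6 genes of excitatory dI5 neurons 2 rose, Tlx1 (1.31) and Phox2a (2.74), and 2 fell, Pou4f1 (-3.01) and Prrxl1 (-2.25). Markers of other cells moved in the same comparison. Of 5 limb and lateral mesoderm markers 4 rose, with summed levels of 9326 to 13301 in M5 and 524 to 1285 in R5, and of 13 pan-neuronal genes 10 fell, with sums of 1671 to 2522 in M5 and 4338 to 10021 in R5. All 4 mESC markers rose, with sums of 1201 to 3093 in M5 and 281 to 637 in R5. The part of these cell types in the lower levels of the 6 genes was not tested.

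In B5 over R5, with BMP4 added 24 h after RA, 3 of 6 genes were called lower, beside 3.23% of all genes. They were Prdm12 (log2 change -2.65, SE 0.75, adjusted p = 0.03), Dmrt3 (log2 change -1.73, SE 0.51, adjusted p = 0.0378) and Gbx1 (log2 change -1.31, SE 0.40, adjusted p = 0.0472). Lbx1 (-0.79, adjusted p = 0.504), Lmx1b (-0.86, adjusted p = 0.234) and Prdm13 (-1.40, adjusted p = 0.335) did not pass. Each of the 3 calls depended on single libraries. That of Dmrt3 was lost without any 1 of the 6 (adjusted p 0.0629 to 0.125), that of Gbx1 without R5 replicate 1 or 3 or B5 replicate 1 or 2 (0.124 to 0.195), and that of Prdm12 without R5 replicate 2 or 3 or B5 replicate 1 or 2 (0.0531 to 0.172). In the authors' deposited table the false discovery rates in the same comparison were 0.00299 for Prdm12, 0.0105 for Dmrt3 and 0.0180 for Gbx1. Of the 12 progenitor factors 3 fell, led by Dbx1 (log2 change -5.20). Of 9 inhibitory neuron genes only 1 was called, Pax2, which fell (-3.41), and the median of the 9 was -0.32. Of 5 limb and lateral mesoderm markers 3 rose, with sums of 3218 to 5779 in B5, and their part was not tested.

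In M5 over B5, 4 of 6 genes were called lower, beside 9.23% of all genes: Prdm13 (log2 change -4.97, SE 0.81, adjusted p = 4.75e-05), Prdm12 (log2 change -2.97, SE 0.75, adjusted p = 0.00501), Lbx1 (log2 change -2.95, SE 0.61, adjusted p = 0.000874) and Gbx1 (log2 change -1.55, SE 0.40, adjusted p = 0.00637). Dmrt3 and Lmx1b did not pass (adjusted p = 0.15 and 0.106), although the Dmrt3 libraries did not overlap. Of the 12 progenitor factors 8 fell in the same comparison, Pax6 (log2 change -3.38) and Pax3 (-4.84) among them. The Gbx1 call was lost without B5 replicate 3 or M5 replicate 2 (adjusted p 0.0547 to 0.0591), and that of Prdm12 without M5 replicate 2 (0.0516). Without M5 replicate 3 Lmx1b passed (0.0182). Of 5 limb and lateral mesoderm markers 1 rose, and of 13 pan-neuronal genes 2 fell.

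The 6 h comparison asked what BMP4 did soon after it was added to RA. Gbx1 stood at 102, 56.0 and 61.0 in B6hr, against 241, 176 and 105 in R6hr. Lmx1b stood at 59.0, 59.6 and 46.7 in B6hr, against 107, 127 and 101 in R6hr. Neither gene overlapped between the groups, as in 31.6% of all genes. Prdm13 had 468, 431 and 285 in B6hr, against 796, 768 and 324 in R6hr. Lbx1 had 48.7, 138 and 185 in B6hr, against 85.3, 138 and 455 in R6hr. Dmrt3 had 146, 65.5 and 25.4 in B6hr, against 188, 149 and 15.9 in R6hr, and Prdm12 had 102, 75.0 and 27.1 in B6hr, against 129, 113 and 13.4 in R6hr. In both groups replicate 3 was highest for Lbx1 and lowest for Dmrt3, Prdm12 and Prdm13. With all 45 libraries in 1 fit, limma-trend called 0 of the 6 genes and 2 of 11220 genes, both lower (0.0178%), while 2161 genes had an unadjusted p under 0.05, Gbx1 and Lmx1b among them. The authors' deposited table had no false discovery rate under 0.1 for any of the 6 in this comparison. Here same-numbered libraries deviated together from their group means, although no label states a pairing. A fit of these 6 libraries with the number as a block, added after the data were seen, called 2902 of 11220 genes, 1186 of them higher. In it 3 of the 6 genes were lower: Lmx1b (log2 change -1.01, adjusted p = 0.0051), Gbx1 (-1.21, adjusted p = 0.0032) and Prdm13 (-0.59, adjusted p = 0.014). In the 6 libraries without the block Lmx1b passed (adjusted p = 0.030) with 847 genes called.

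**Figure D2:**
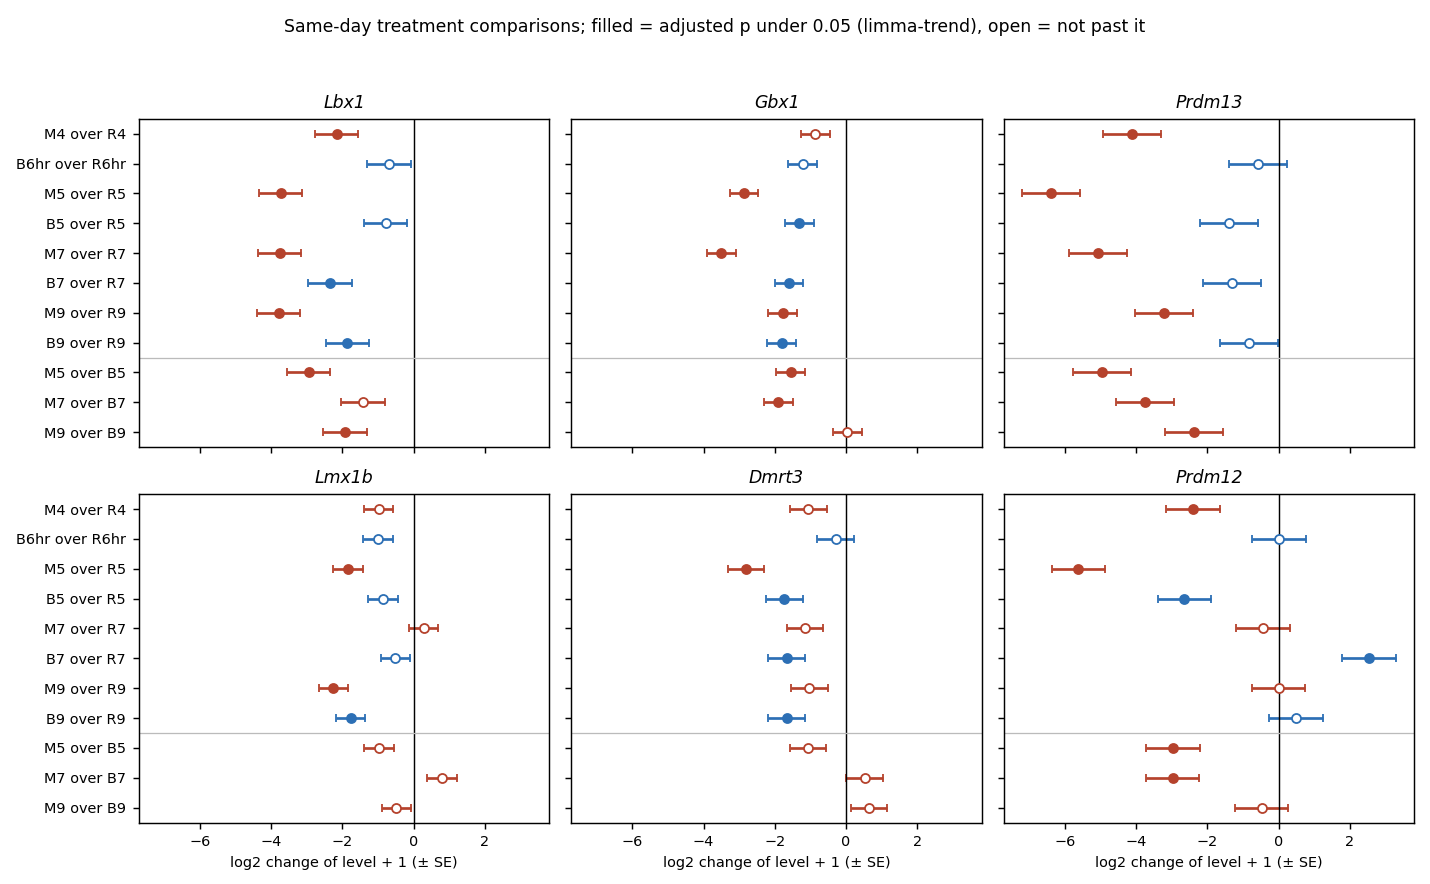
log2 change of level + 1 with its SE for each of the 6 genes in the 11 same-day comparisons, with comparisons against R above the grey line and M over B below it. Filled points were called (limma-trend, adjusted p under 0.05), and open points were not. Changes lie left of 0 in nearly all comparisons for Lbx1, Gbx1 and Prdm13, and Prdm12 in B7 over R7 is the one filled point to the right of 0 (log2 change 2.54).

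At day 7 the highest mean of Prdm12 was that of B7, while Lbx1, Gbx1, Dmrt3 and Prdm13 had their highest day 7 means in R7 and Lmx1b in M7. Prdm12 stood at 15.5, 39.7 and 115 in M7, 321, 347 and 339 in B7 and 62.3, 80.4 and 36.8 in R7. All B7 libraries exceeded all M7 and R7 libraries, and the highest M7 level was that of replicate 3. Prdm13 stood at 8.33, 19.8 and 83.7 in M7, 234, 342 and 505 in B7 and 1143, 1312 and 409 in R7. Lbx1 stood at 11.4, 14.6 and 24.8 in M7, 34.6, 51.9 and 49.4 in B7 and 275, 325 and 138 in R7. Gbx1 stood at 6.03, 22.6 and 14.1 in M7, 39.1, 57.0 and 54.8 in B7 and 162, 125 and 176 in R7. Lbx1 and Gbx1 kept separate ranges, lowest in M7 and highest in R7, and Prdm13 overlapped between B7 and R7. Of all genes 48% did not overlap in M7 over R7, 51.4% in M7 over B7 and 40.2% in B7 over R7. Dmrt3 stood at 46.0, 47.0 and 54.9 in M7, 31.9, 42.7 and 29.0 in B7 and 116, 111 and 105 in R7, with M7 above B7 and both below R7. Lmx1b stood at 60.2, 184 and 171 in M7, 52.5, 84.0 and 82.4 in B7 and 123, 111 and 77.1 in R7, and its ranges overlapped throughout.

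In B7 over R7 Prdm12 rose (log2 change 2.54, SE 0.75, adjusted p = 0.0147), as did 12.1% of all genes. Lbx1 (log2 change -2.34, SE 0.61, adjusted p = 0.00707), Gbx1 (log2 change -1.60, SE 0.40, adjusted p = 0.00544) and Dmrt3 (log2 change -1.67, SE 0.51, adjusted p = 0.0183) fell, as did 11.6% of all genes. Lmx1b and Prdm13 did not pass (log2 changes -0.51 and -1.30, adjusted p = 0.399 and 0.25). The Prdm12 call was lost without R7 replicate 3 (adjusted p = 0.0642), and that of Dmrt3 without B7 replicate 1 or 3 (0.0571 and 0.06). In the authors' deposited table Prdm12 had a false discovery rate of 0.00326 in this comparison. Within the B series Prdm12 was higher in B7 than in B5 (log2 change 2.25, SE 0.75, adjusted p = 0.0217, beside 15.8% of all genes higher) and lower in B9 than in B7 (log2 change -3.36, SE 0.75, adjusted p = 0.00244, beside 8.13% lower), and no other gene of the 6 was called in either. The call in B7 over B5 was lost without B5 replicate 2 or 3 or B7 replicate 1 or 2 (adjusted p 0.0518 to 0.0727). In B7 over B5, 12 of 13 pan-neuronal genes rose and 0 fell, and of 9 dI1 to dI3 genes 6 rose and 1 fell. Of 5 limb and lateral mesoderm markers 4 fell and 0 rose. The part of these cells in the Prdm12 change was not tested.

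Genes of sensory and dorsal neurons were high in the same B7 libraries. Isl1, a LIM homeodomain factor of dI3 and sensory neurons, stood at 489.5, 664 and 733 in B7, against 53.4, 108 and 19.2 in R7, and Tlx3, a homeodomain factor of dI3, dI5 and sensory neurons, at 1459, 1348 and 1819.5 in B7, against 251, 281 and 68.8 in R7. Both genes had every B7 library above every R7 library. Over whole lists in B7 over R7, 5 of 7 neural crest and sensory ganglion markers rose and 1, the receptor gene Ret, fell, with summed levels of 7041 to 10469 in B7 and 1974 to 4814 in R7. Of 9 dI1 to dI3 genes 8 rose, with sums of 4175 to 9628 in B7 and 235 to 1665 in R7, led by Lhx9 (log2 change 5.24) and Foxd3 (4.86). Of 13 pan-neuronal genes 3 rose, with sums of 57908 to 77549 in B7 and 8717 to 30450.5 in R7. R7 replicate 3 was the lowest R7 library for Tubb3 (4549, 4899.6 and 1089.8), for Prdm12 and for Prdm13. The part of sensory or dorsal neurons, or of R7 replicate 3, in the Prdm12 difference was not tested beyond the fit without that library. Of the 12 dP4 to dP6 progenitor factors 3 fell and 0 rose, and of 9 inhibitory neuron genes 4 fell, led by Pax2 (-3.58), and 1, Wt1, rose (2.36). Of 6 excitatory dI5 genes 3 rose, Tlx3 (3.17), Pou4f1 (1.79) and Prrxl1 (1.73), and 1, Tlx1, fell (-1.76).

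**Figure D3:**
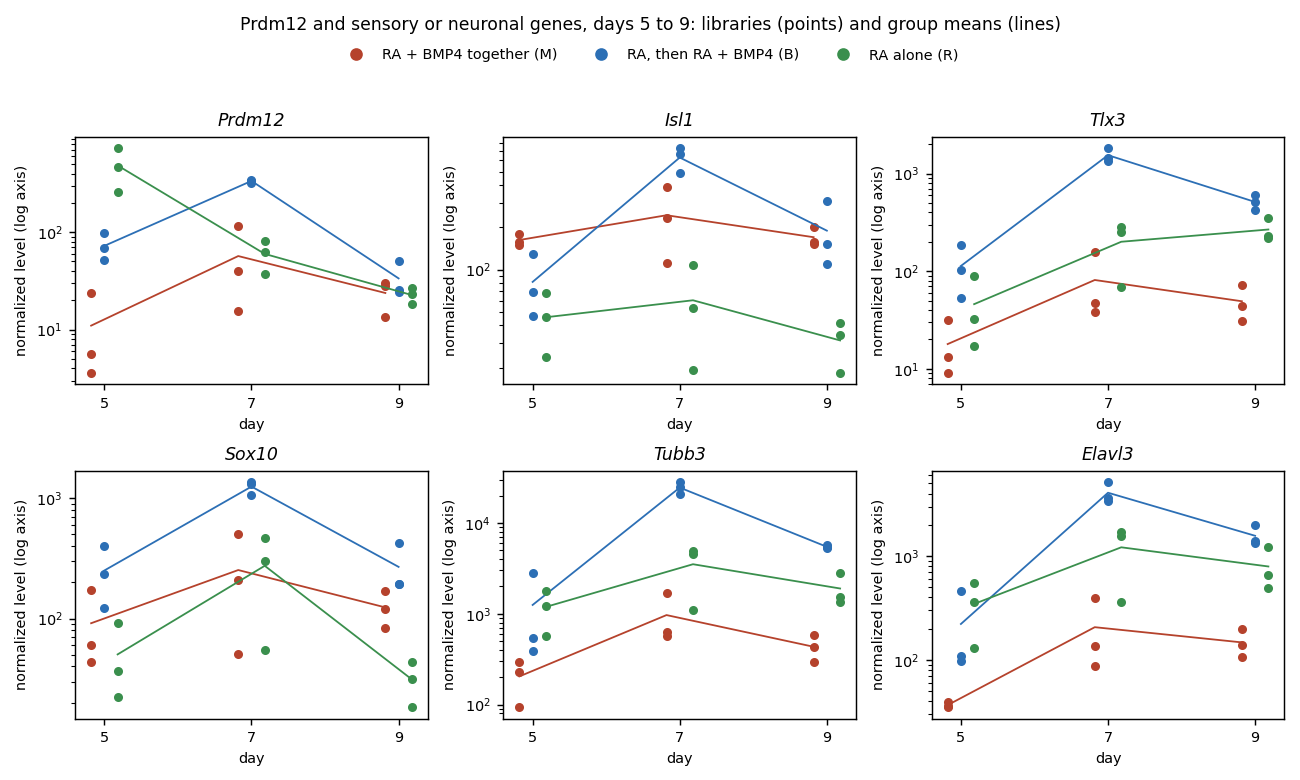
Level (log axis) of Prdm12 and of 5 sensory or neuronal genes on days 5, 7 and 9 in the M, B and R groups. Points are libraries and lines join group means. All 6 panels have their highest B mean at day 7, and only Prdm12 has its highest R mean at day 5 (484, against 336 for B7).

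In M7 over R7, Prdm13 (log2 change -5.06, SE 0.81, adjusted p = 6.71e-06), Lbx1 (log2 change -3.76, SE 0.61, adjusted p = 8.52e-06) and Gbx1 (log2 change -3.50, SE 0.40, adjusted p = 2.49e-08) fell, 3 of 6 beside 20.6% of all genes. Dmrt3 (-1.15, adjusted p = 0.0672) did not pass, and Lmx1b and Prdm12 differed by less than 1 SE. With the 6 compared libraries alone Dmrt3 passed (adjusted p = 0.0104). All 12 dP4 to dP6 progenitor factors fell, and 4 of 5 limb and lateral mesoderm markers rose, with sums of 3499 to 8017 in M7 and 217 to 1582 in R7. The part of the mesoderm markers' cells was not tested. In M7 over B7, Prdm12 (log2 change -2.98, SE 0.75, adjusted p = 0.00194), Prdm13 (log2 change -3.76, SE 0.81, adjusted p = 0.000436) and Gbx1 (log2 change -1.90, SE 0.40, adjusted p = 0.000366) fell, 3 of 6 beside 19.9% of all genes. All 13 pan-neuronal genes fell there too, with sums of 3210.1 to 10869 in M7 and 57908 to 77549 in B7. Lbx1 (-1.42, adjusted p = 0.0627) missed the threshold when all libraries were fitted and passed with the 6 compared libraries alone (adjusted p = 0.0225) and without M7 replicate 3 (0.0496). Lmx1b went the other way, at 0.79 (adjusted p = 0.132), and passed without M7 replicate 1, at 1.30 (0.0175). Of 5 limb and lateral mesoderm markers 4 rose in M7 over B7.

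**Figure D4:**
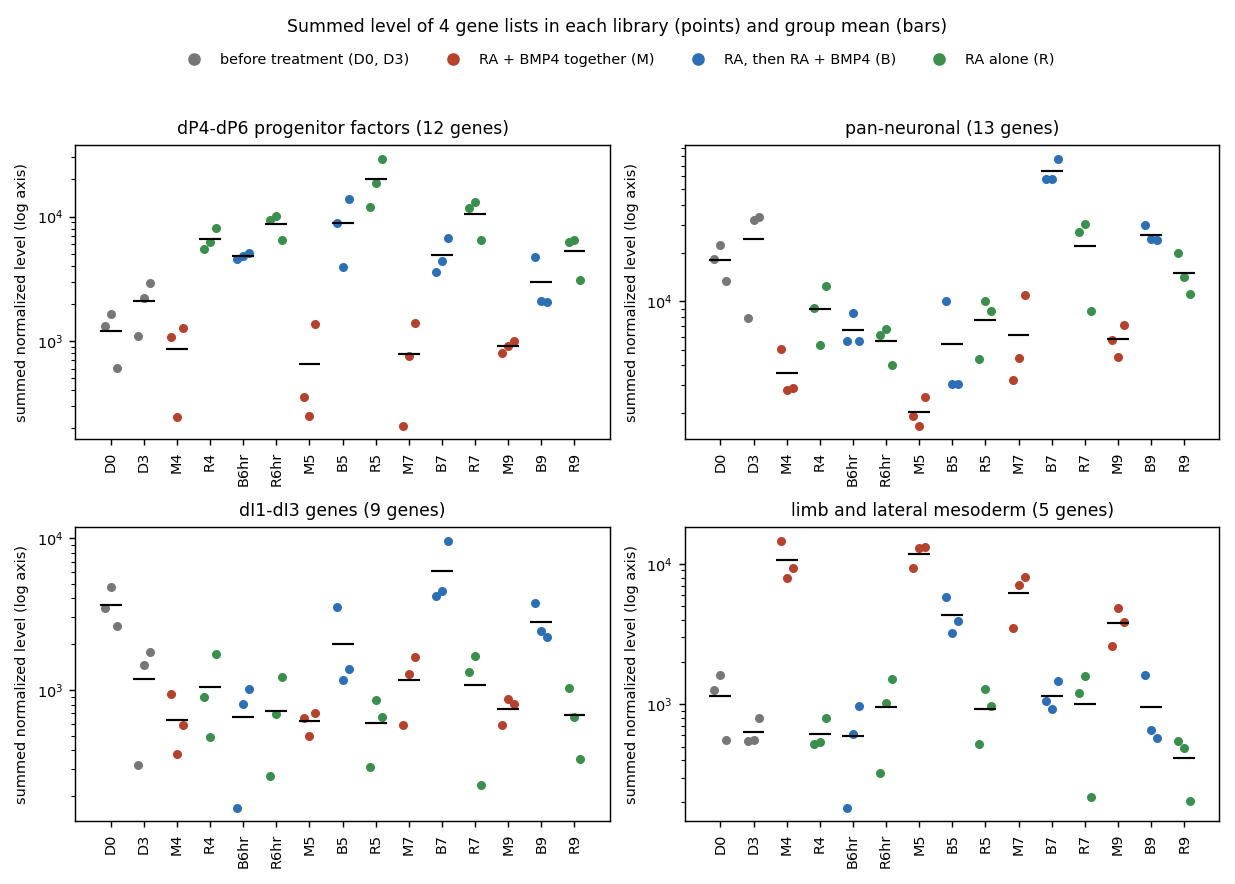
Summed level (log axis) per library of 4 gene lists, grouped by day with M left of B left of R, after D0 and D3. Points are libraries and bars are group means. The progenitor list is lowest in the M groups at every shared day, the limb and lateral mesoderm list is highest there, and the pan-neuronal and dI1 to dI3 lists have their highest mean in B7.

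At day 9 Lbx1, Lmx1b, Gbx1 and Dmrt3 had every M9 and B9 library below every R9 library, while Prdm12 overlapped in all 3 groups. Over all genes 63.2% did not overlap in M9 over R9, 35.3% in B9 over R9 and 63.4% in M9 over B9. Lbx1 stood at 17.5, 16.4 and 16.9 in M9, 80.7, 62.6 and 60.9 in B9 and 277, 289 and 188 in R9. Lmx1b stood at 31.1, 40.5 and 55.4 in M9, 66.9, 44.5 and 65.1 in B9 and 221, 214 and 168 in R9. Gbx1 stood at 41.7, 27.7 and 17.9 in M9, 39.1, 27.0 and 18.4 in B9 and 83.9, 89.8 and 120.2 in R9. Prdm13 stood at 55.5, 56.6 and 61.1 in M9, 464, 248 and 246 in B9 and 706, 661 and 337 in R9. Dmrt3 stood at 43.4, 52.2 and 42.0 in M9, 27.8, 24.3 and 35.9 in B9 and 81.1, 88.7 and 117 in R9, and Prdm12 at 29.8, 13.5 and 27.9 in M9, 50.6, 25.8 and 24.2 in B9 and 26.7, 23.0 and 18.2 in R9. Prdm13 overlapped between B9 and R9 but not between M9 and either, and Dmrt3 was lowest in B9.

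In B9 over R9, 4 of 6 genes were called lower, beside 5.71% of all genes: Lbx1 (-1.86, SE 0.61, adjusted p = 0.0439), Lmx1b (-1.77, SE 0.42, adjusted p = 0.00595), Gbx1 (-1.81, SE 0.40, adjusted p = 0.00397) and Dmrt3 (-1.67, SE 0.51, adjusted p = 0.0297). The Lbx1 call was lost without any 1 of the 6 libraries (adjusted p 0.0706 to 0.14), and that of Dmrt3 without any 1 of them but R9 replicate 1 (0.0502 to 0.108). In M9 over R9, Lbx1 (log2 change -3.79, SE 0.61, adjusted p = 7.25e-06), Prdm13 (log2 change -3.20, SE 0.81, adjusted p = 0.00156), Lmx1b (log2 change -2.25, SE 0.42, adjusted p = 4.87e-05) and Gbx1 (log2 change -1.78, SE 0.40, adjusted p = 0.00052) fell, 4 of 6 beside 23.5% of all genes. Dmrt3 (-1.03, adjusted p = 0.0903) did not pass, except with the 6 compared libraries alone (adjusted p = 0.00745). Of 9 inhibitory neuron genes 7 fell and 1, Wt1, rose in M9 over R9, and 3 fell and 1, Wt1 again, rose in B9 over R9. Of 5 limb and lateral mesoderm markers 4 rose in M9 over R9 and 1 in B9 over R9, with sums of 2619 to 4857 in M9, 579 to 1627 in B9 and 205 to 547 in R9. Of 13 pan-neuronal genes 7 fell in M9 over R9 and none was called in B9 over R9, with sums of 4514 to 7140.4 in M9, 23988 to 29784 in B9 and 11047 to 19888 in R9. Unlike in M5 over R5, 3 of 4 mESC markers fell in M9 over R9, and none was called in B9 over R9. Sums of the mESC markers were 602 to 1178 in M9, 2782 to 6908 in B9 and 3378 to 6843 in R9. The part of all these cells was not tested. In M9 over B9, Lbx1 (log2 change -1.93, SE 0.61, adjusted p = 0.00976) and Prdm13 (log2 change -2.38, SE 0.81, adjusted p = 0.0153) fell, 2 of 6 beside 23.7% of all genes. Without B9 replicate 1 the Prdm13 call was lost (adjusted p = 0.06). In the same comparison 4 of 5 limb and lateral mesoderm markers rose, and 10 of 13 pan-neuronal genes and all 4 mESC markers fell.

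From M5 to M7 and from M7 to M9, calls were of Lmx1b, Dmrt3 and Prdm12. In M7 over M5, 3 of 6 genes were called higher, beside 7.41% of all genes: Lmx1b (log2 change 1.33, SE 0.42, adjusted p = 0.0313), Dmrt3 (log2 change 1.51, SE 0.51, adjusted p = 0.0475) and Prdm12 (log2 change 2.24, SE 0.75, adjusted p = 0.0441). Of the 6 genes 1, Dmrt3, had no overlap between M7 and M5, as in 32.2% of all genes. Of 13 pan-neuronal genes 5 rose and 0 fell in M7 over M5, and their part was not tested. With quantile normalization the share of higher calls over all genes in this comparison was 44.7%, and it was 59.1% as deposited. Leaving out single libraries ended each call, for Dmrt3 any 1 of the 6 (adjusted p 0.0698 to 0.176), and for Lmx1b and Prdm12 M5 replicate 1 or 2 or M7 replicate 2 or 3 (0.107 to 0.204 and 0.0992 to 0.257). In M9 over M7 Lmx1b was called lower (log2 change -1.57, SE 0.42, adjusted p = 0.0264), beside 1.6% of all genes, and this was lost without M7 replicate 2 or 3 or M9 replicate 1 or 2 (0.071 to 0.143).

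Whether the courses differed was tested as a difference of changes. For (M9 over M5) minus (R9 over R5), 2 of 6 genes were called, both higher, beside 21.9% of all genes. They were Prdm12 (log2 change 5.62, SE 1.06, adjusted p = 0.000124) and Prdm13 (log2 change 3.17, SE 1.15, adjusted p = 0.0284), whose R levels were high in R5 and lower in R9 while the M levels were low on both days. The Prdm13 call was lost without R5 replicate 2 or 3, M5 replicate 2 or R9 replicate 3 (adjusted p 0.0601 to 0.148). With quantile normalization 45.7% of all calls in this comparison were higher, and 56.3% as deposited, with the median of all genes moved by -0.12. For (B9 over B5) minus (R9 over R5) limma-trend called 0 of 6 genes and 2.11% of all genes. Prdm12 alone had an unadjusted p under 0.05 there (log2 change 3.13, SE 1.06, adjusted p = 0.114). A further test, added after the Prdm12 levels were seen, asked whether the change of B over R differed between day 7 and day 5. In (B7 over R7) minus (B5 over R5), Prdm12 was the 1 gene of 6 called (log2 change 5.19, SE 1.06, adjusted p = 0.0048), beside 1.27% of all genes higher.

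Ordered by group mean, each gene ran over a different range. Prdm13 was highest in R5 (2072 ± 877, SD, n = 3) and lowest in M4 (19.6 ± 9.92), a ratio of 105.9. Prdm12 was highest in R5 (484 ± 235) and lowest in D3 (9.35 ± 0.904), a ratio of 51.7. Lbx1 was highest in R9 (251 ± 55.2) and lowest in M5 (12.1 ± 8.74), a ratio of 20.8, and its R9, R7 and R6hr means lay close together. The range of Gbx1 ran from R6hr (174 ± 67.7) down to M7 (14.3 ± 8.29), a ratio of 12.2. That of Dmrt3 ran from R5 (123 ± 12.9) down to M5 (17.0 ± 4.20), a ratio of 7.21. Lmx1b had the narrowest range, highest in R9 (201 ± 28.6) and lowest in D3 (36.3 ± 16.3), a ratio of 5.54. Of 14 neighbouring pairs of groups in each order, those separated with no overlap were 2 for Prdm12 (B7 above R6hr, and R9 above M4), 1 for Prdm13 (B9 above D3), 1 for Gbx1 (R7 above R9) and 0 for Lbx1, Lmx1b and Dmrt3. The same count was not made over all genes, so whether these counts are low is unknown. For Gbx1, Dmrt3 and Lbx1 the 4 highest means were all of R groups, whereas the fourth highest mean of Lmx1b was that of M7.

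Across the 15 group means of log2(level + 1), the 6 genes correlated pairwise between 0.49 and 0.90 (Pearson's r, a description of 15 points that share cultures, days and libraries). The highest values were those of Lbx1 with Prdm13 (0.90), Lbx1 with Gbx1 (0.87) and Gbx1 with Prdm13 (0.85), and the lowest that of Lmx1b with Prdm12 (0.49). Pax2 correlated most with Gbx1 (0.83) and least with Prdm12 (0.26). Over all genes of the table with a symbol and a highest group mean of at least 5, the 3 whose 15 means were most alike were taken for 5 of the 6 genes. They were Fam181a (0.97), Scube2 and Plch1 for Prdm13, Golm1 (0.96), Fam117a and Aagab for Gbx1, and Muc1 (0.95), Dhx32 and Ccdc177 for Lbx1. They were Slc22a23 (0.92), Pcmt1 and Gzmm for Dmrt3, and C130021I20Rik (0.91), 2210416O15Rik and Isx for Lmx1b.

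Markers of the other cells in which these genes act were looked up beside them. Of 5 muscle precursor markers 4 are in the table, and in R7 over R5 and R9 over R7, where Lbx1 means were highest, 1 and 0 of the 4 rose, and 1 and 0 fell. Myog, a muscle differentiation factor, rose in R7 over R5 (2.71) and Met, a receptor of migrating precursors and other cells, fell (-0.79). The summed level of the 4 markers was 598 to 869 in R5, 464 to 532 in R7 and 439 to 503 in R9. Their mean log2(level + 1) went the other way, at 4.52 in R5, 5.31 in R7 and 5.34 in R9. Myod1, the muscle determination factor, had its highest R-group mean in R9, with libraries at 26.2, 31.0 and 33.5. For Lmx1b, the limb and lateral mesoderm list summed to 205 to 547 in R9, where Lmx1b was highest, and to 3499 to 8017 in M7. The roof plate list summed to 4464 to 15056 in R9 and 495 to 4051 in M7. The part of these cell types in the levels of Lbx1 and Lmx1b was not tested.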

How the data were processed

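Levels came from 1 table of 11220 genes in 45 libraries. Its normalized levels are a signal that the authors deposited with no unit in the header. None is 0 and only 1 is whole (no tolerance), so they are not counts. The same read number is stated for every library, and the depth reached in each was not checked. Columns headed fpkm, and a rank, which the authors deposited too, are each a score and stayed out. For 12 comparisons the authors deposited log2 fold changes, p-values and false discovery rates. Each listed gene has a rate under 0.1 in at least 1 of them, so calls are more frequent here than among the 16014 genes that the deposited rates imply. Picard, edgeR and mm10 are named, with no role or version, in the submitters' processing notes, and the aligner, counter and strand setting were not given in the sources used here. Per the labels' protocols, a NuGEN mRNA kit and a NovaSeq were used.

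limma 3.58.1 in R 4.3.3 (trend, robust) was run on log2(level + 1) with 1 mean per group of 3, over all 45 libraries. Requiring a level of 1 in 3 libraries took out 0 genes. p-values of each of the 22 comparisons were adjusted over the 11220 genes by Benjamini-Hochberg and called under 0.05. The planned count test could not be used. The fit was first tested on simulated data. The 6 genes and all lists were chosen with earlier results of these data known, so no list has a test of its own. Named list genes are up to 4 called members with the smallest adjusted p in a comparison, beside Pax2, Ptf1a, Tlx3, Tubb3 and Elavl3. Others, among them Pou5f1, Myod1, and Isl1 and Sox10 where set beside Prdm12, were picked after their values were seen, and some are not reported here. log2 changes of the 6 genes are given where they reach 1 SE (99 of 132). No label pairs replicate numbers. In B6hr with R6hr, same-numbered libraries deviated together from their group means (correlations 0.59, 0.19 and 0.46, highest between different numbers 0.15). Among the same-day comparisons, only this had every same-numbered value above the highest different-numbered value. M7 with B7 had 0.61, 0.01 and 0.54 (highest different 0.24), and M5 with R5 had 0.32, -0.02 and 0.46 (0.06). Comparisons across days were not checked, and whether other groups share differentiations was not tested. Alternatives were pseudocounts of 0.1 and 5, no filter, quantile normalization, a replicate block, the compared libraries alone and leaving out each library. Adjustment over the 16014 genes, the authors' deposited test and the block within the 6 h libraries were added after the data were seen. Positions are from GENCODE M21 and promoters from RefSeq. Python 3.11.15 with pandas 2.3.3 and matplotlib 3.10.9 made tables and plots.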

Additional observations from a re-analysis of the deposited data

Results flagged for a closer look

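The change of Prdm12 between days 5 and 9 differed between the M and R courses: (M9 over M5) minus (R9 over R5) was 5.62 on the log2 scale (SE 1.06, adjusted p = 0.000124). Its means were 23.7 in M9 and 11 in M5, and 22.6 in R9 and 484 in R5. Over all alternatives run this difference stayed between 5.04 and 6.35, with adjusted p at most 0.000763.

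The change of Prdm13 over the same days also differed, by 3.17 on the log2 scale (SE 1.15, adjusted p = 0.0284). Its means were 57.7 in M9 and 43.4 in M5, and 568 in R9 and 2072 in R5. The call was lost without R5 replicate 2 or 3, M5 replicate 2 or R9 replicate 3 (adjusted p 0.0601 to 0.148) and with the compared libraries alone (0.055), and the difference ran between 1.98 and 4.23 over the alternatives.

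The change of Prdm12 in B over R differed between day 7 and day 5: (B7 over R7) minus (B5 over R5) was 5.19 (SE 1.06, adjusted p = 0.0048), a comparison added after its levels were seen. Prdm12 averaged 336 in B7 and 59.8 in R7, and 72.3 in B5 and 484 in R5. Over the alternatives it stayed between 4.83 and 5.58, with adjusted p at most 0.0225.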

How the results depend on the processing

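Of the called changes of the 6 genes, 256 of 336 refits without 1 library and 370 of 394 refits under other settings kept their call, and of those not called 5 of 312 and 12 of 344 passed. These counts leave out the 33 of 132 changes under 1 SE. Prdm13 in B6hr over R6hr, which passed with the block in those 6 libraries, is among those left out. Without 1 library, counts of genes called out of 6 ran from 1 to 3 in M4 over R4, 0 to 2 in B5 over R5, 2 to 5 in M5 over B5, 2 to 3 in B9 over R9, 1 to 2 in M9 over B9, 0 to 2 in R5 over R4 and in M7 over M5, 0 to 1 in R7 over R5, B7 over B5 and M9 over M7, and 1 to 2 in (M9 over M5) minus (R9 over R5). With the compared libraries alone the counts were 1 in B6hr over R6hr, R5 over R4, M7 over M5 and (B9 over B5) minus (R9 over R5), 2 in R4 over D3 and 0 in M9 over M7. A pseudocount of 5 gave 1 in M7 over M5. Adjustment over all genes the authors tested gave 1 in B5 over R5 and in M7 over M5. That adjustment also ended the calls of Prdm13 in R4 over D3, Gbx1 in R5 over R4 and Lbx1 in B9 over R9. A replicate block in the fit of all libraries ended 1 call, that of Lbx1 in B9 over R9 (adjusted p = 0.0521), and passed 1, Dmrt3 in (M9 over M5) minus (R9 over R5) (0.0491). With the block in the 6 libraries of B6hr and R6hr alone, where same-numbered libraries deviated together, 3 of the 6 genes were called. Lbx1 in M7 over M5, not called, ran from -0.0773 (without M5 replicate 2) to 1.24. The causes were not tested. Counts over all genes fell by over 1.5 times with the compared libraries alone in B5 over R5 (97, and 672 with all libraries), R7 over R5 (236 and 1260), R5 over R4 (477 and 1430), M4 over R4 (364 and 1586), R4 over D3 (1046 and 2722), M9 over M7 (168 and 449), R9 over R7 (923 and 2274), M5 over B5 (1020.0 and 1997), B7 over R7 (1475 and 2661), M7 over R7 (3238 and 4882) and (B7 over R7) minus (B5 over R5) (143 and 223). They rose in B6hr over R6hr (847 and 2, and 2902 with the block), and with quantile normalization in (B9 over B5) minus (R9 over R5) (369 and 237). Without 1 library they fell to as few as 196 in B5 over R5. DESeq2 or edgeR was not run, since there are no counts. Beyond the same read number stated for all libraries, depth is unknown, so its limit on low levels cannot be given.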

Other observations

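The authors' deposited table also compares the 6 h groups with their neighbours in time. In it Lbx1 was higher in R6hr than in R4 (log2 fold change 1.91, false discovery rate 0.0226), as was Gbx1 (1.37, 0.017). Lmx1b was lower in B6hr than in R4 (-1.72, 0.00494). Prdm12 was higher in R5 than in R6hr (2.52, 0.00416). Dmrt3 in B5 over B6hr (-1.14, 0.0761) and Prdm13 in R5 over R6hr (1.73, 0.0771) had rates between 0.05 and 0.1. In D0, replicate 3 had the lowest levels of Lbx1, Prdm12 and Prdm13 of the 3 libraries (13.8, 4.10 and 11.8) and the highest Pou5f1.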
